A study of Mus musculus with 9 samples.

Results

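Chemokines are small secreted proteins that draw leukocytes along a gradient. The 10 genes described here encode neutrophil chemokines (Cxcl1, Cxcl2, Cxcl5), monocyte and macrophage chemokines (Ccl2, Ccl7, Ccl3, Ccl4, Ccl6, Ccl9) and the stromal chemokine Cxcl12. They were taken as every probe set whose only symbol in the platform annotation is one of these names, which gave 16 of the 45037 probe sets, and 10 of the 18193 genes with such a probe set, on the Affymetrix Mouse 430 2.0 array. The cells were lung cells that the labels call type II, the surfactant-making cells of the alveolus, from female mice of the ICR10 strain aged 2 months. Per the labels' protocols they were freed with Dispase for 45 min, depleted of macrophages on IgG-coated plates and of fibroblasts by adherence, and then kept for 5 days in dishes coated with collagen and fibronectin, in medium with keratinocyte growth factor, in all groups alike. The 3 groups of 3 arrays each were Nrf2-/- cells supplemented with GSH (called KO with GSH below), Nrf2-/- cells (KO) and Nrf2+/+ cells (WT). GSH is the usual abbreviation of glutathione, and the labels give no dose or time for it and state no treatment in the treatment field. Nrf2 is the transcription factor that switches on antioxidant genes. The design text speaks of 3 isolations per genotype, but the labels tie no array to an animal or culture. The p-values below therefore describe the array-to-array spread, part or all of which may be technical, and 3 arrays per group limit how precise each value is.

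CXC chemokines that carry a glutamate-leucine-arginine motif, among them CXCL1, CXCL2 and CXCL5, bind the receptor CXCR2 on neutrophils. In mouse lung CXCL5 is known as a product of alveolar type II cells. CCL2 and CCL7 call CCR2-bearing monocytes out of the blood, and CCL3 and CCL4 attract monocytes, macrophages and lymphocytes. CCL6 and CCL9 are mouse CC chemokines of the CCR1 ligand group that macrophages make in quantity. CXCL12 comes from stromal cells, holds CXCR4-bearing cells in place and is removed by the scavenger receptor ACKR3. Many of the inflammatory members are switched on through NF-kB, whereas CXCL12 is largely made without a stimulus.

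Some facts of the whole series bear on the results. Nfe2l2, the gene of Nrf2, had mean signals of 41.6 in KO with GSH, 59.9 in KO and 3980.4 in WT by its brighter probe set, which fits the labelled genotypes, although the sources used here do not say whether this probe set lies in the deleted part. A dimmer Nfe2l2 probe set did not follow the genotypes, at 147.9 in KO with GSH, 46.7 in KO and 42.2 in WT. Sex-linked genes differed with genotype against the label of female animals: the Y-linked Eif2s3y had 7.43 in KO with GSH, 9.27 in KO and 801.1 in WT, and Xist had 3510 ± 1112.1, 3203 ± 1247.6 and 157.2 ± 28.2 in the same groups. Genotype and this difference cannot be told apart in any comparison with WT. By a number in the titles' code, each group holds 2 arrays of a set 2 and 1 array of a set 3. The meaning of that number is not stated, and it entered the model as a term. Arrays of 1 group correlated at 0.979 to 0.99 within set 2 and at 0.95 to 0.968 between sets. Median signals were 101.6 to 142.6. The level of the array's unspiked bacterial control probe sets (their 95th percentile) was 43.4 to 82.9. The surfactant gene Sftpc, the defining marker of type II cells, read only 107.8 ± 30.3 in KO with GSH, 89.1 ± 48.7 in KO and 37.3 ± 10.3 in WT, where it lay at or below the control level on all 3 arrays. The keratin gene Krt8, the macrophage gene Adgre1 and the collagen gene Col1a1 were far above that level in every group, so the cultures held RNA of more than 1 cell type.

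Transcripts of all 10 chemokine genes were higher in KO than in WT cells, and KO with GSH differed from KO in both directions. Cxcl12, Ccl7, Cxcl5 and Ccl2 were lower in KO with GSH than in KO. Cxcl2, Ccl3 and Ccl9 were higher, by only 1.28- to 1.46-fold, and 0 chemokine probe sets were higher by a 1.5-fold rule over array pairs. Cxcl1, Ccl4 and the brighter Ccl6 probe set did not pass the test. Against WT, KO cells with GSH had higher Cxcl1, Cxcl2, Cxcl5, Ccl3, Ccl4, Ccl6 and Ccl9, lower Cxcl12 and Ccl7, and no called difference in Ccl2. Changes are log2 differences with their standard error (SE) from limma, called at a Benjamini-Hochberg adjusted p under 0.05 over the 22519 probe sets kept by a signal filter, and the 3 comparisons share arrays. The filter kept 15 of the 16 chemokine probe sets, each of them above the control level on all 9 arrays. In KO against WT, 15 of 15 were called and all were higher, where 29.1% of all probe sets tested were called and 14.6% were called higher. Their log2 changes ran from 0.38 to 1.73 with a median of 1.02, beside 0 for all probe sets, and 8 of 15 differed at least 2-fold, beside 5.02% of all. In KO with GSH against KO, 5 were higher, 5 lower and 5 not called, where 35.4% of all probe sets were called, 18.4% higher and 17% lower. In KO with GSH against WT, 11 were higher, 3 lower and 1 not called, where 44.7% were called, 22.5% higher and 22.3% lower. After each array was centred on its median, 35.1% of the probe sets called in KO against WT were higher, in place of 50%. Of those called in KO with GSH against WT, 32.7% were higher, in place of 50.2%. The 15 chemokine probe sets kept their calls there in these 3 comparisons. The KO and WT arrays did not overlap for any of the 15 probe sets, beside 30.2% of all probe sets. KO with GSH and KO did not overlap for 11 (33.6% of all), nor KO with GSH and WT for 13 (43.4% of all).

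**Figure D1:**
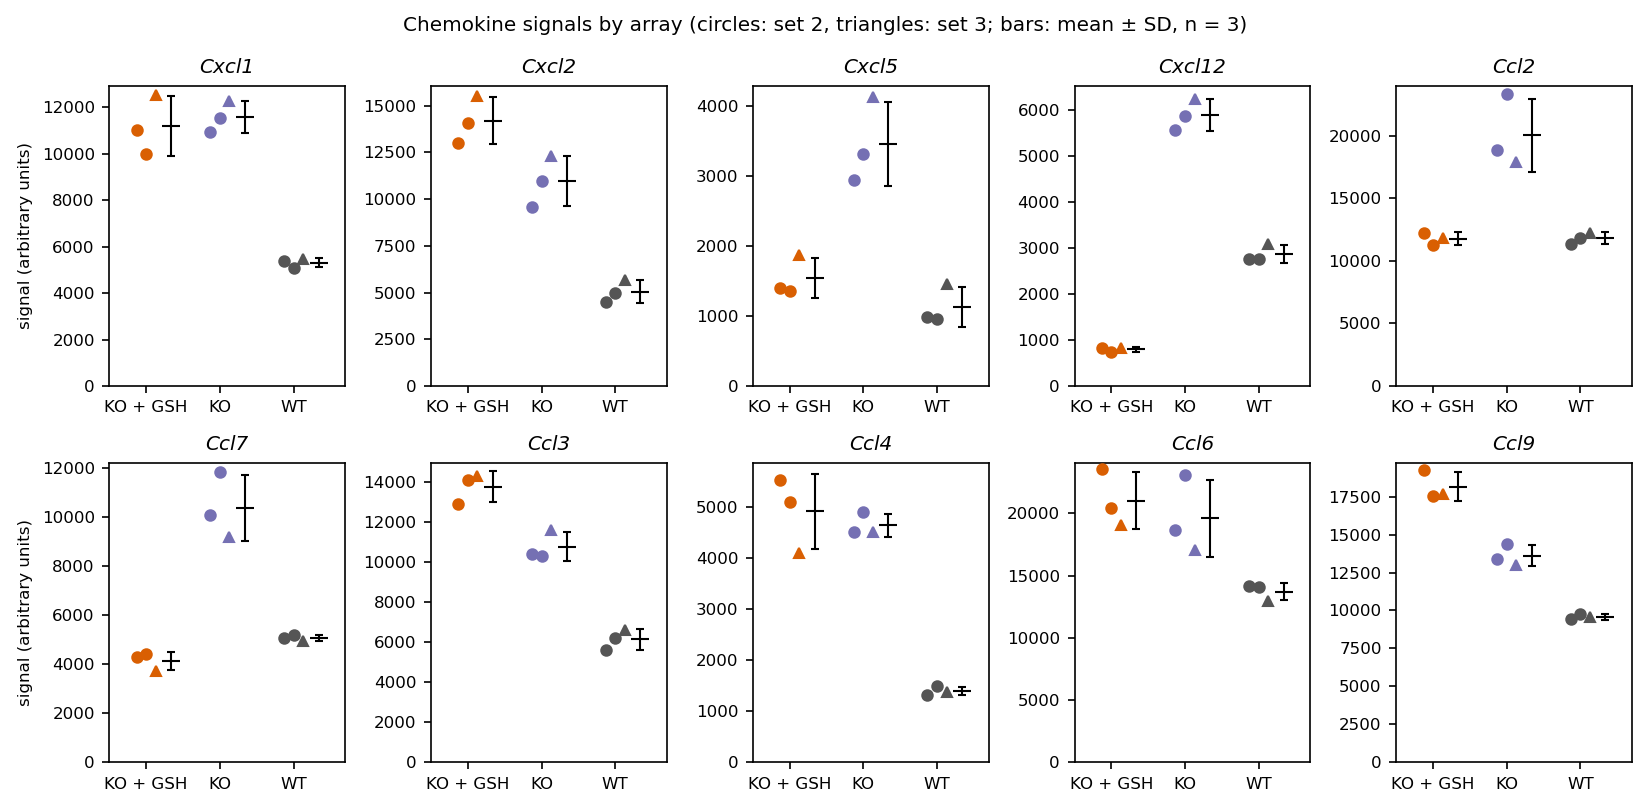
Signal in arbitrary units on a linear axis from 0 for 1 probe set of each chemokine gene, with KO with GSH, KO and WT from left to right. Points are single arrays (circles for set 2, triangles for set 3) and bars are mean ± SD with n = 3. The KO arrays lie above the WT arrays in every panel, and Cxcl12 with GSH lies below both, at 739.7 to 829.5.

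Of the neutrophil chemokines, Cxcl1 and Cxcl2 stayed high with GSH and Cxcl5 did not. Their genes lie on chromosome 5, where Cxcl1 and Cxcl2 are neighbours. Of the 10 genes, 6 had a promoter in the RefSeq table of GRCm38.p6 (Cxcl1, Cxcl2, Cxcl12, Ccl3, Ccl6, Ccl9), as 250 bases before to 50 after the transcription start. The letters GGGANTTTC, the start of an NF-kB site, or their other strand stood in 2 of these 6, Cxcl1 and Cxcl2, and in 1.11% of all 32851 promoters. The match began 71 bases before the start of Cxcl1 and 97 bases before that of Cxcl2. These promoters are printed in lower case with the match in capitals, because they hold the match. The promoters of Ccl3, Ccl6 and Ccl9, which were also higher in KO and not called lower with GSH, held none. The Cxcl12 promoter follows as that of the gene with the largest fall with GSH among the 10, and it held no match. A match is a description of these letters only.
Cxcl1, chr5:90890995-90891294, strand +: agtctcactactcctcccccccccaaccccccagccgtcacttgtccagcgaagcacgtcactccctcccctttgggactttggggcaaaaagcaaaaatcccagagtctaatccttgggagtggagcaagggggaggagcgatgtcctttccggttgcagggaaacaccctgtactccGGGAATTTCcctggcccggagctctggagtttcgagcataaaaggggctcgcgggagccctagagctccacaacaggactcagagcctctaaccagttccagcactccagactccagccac
Cxcl2, chr5:90903649-90903948, strand +: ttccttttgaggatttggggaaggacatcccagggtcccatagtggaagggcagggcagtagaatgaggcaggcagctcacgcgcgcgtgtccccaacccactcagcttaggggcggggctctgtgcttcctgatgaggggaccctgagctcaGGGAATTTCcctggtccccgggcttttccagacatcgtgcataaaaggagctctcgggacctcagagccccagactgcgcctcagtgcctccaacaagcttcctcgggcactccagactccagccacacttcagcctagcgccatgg
Cxcl12, chr6:117168285-117168584, strand +: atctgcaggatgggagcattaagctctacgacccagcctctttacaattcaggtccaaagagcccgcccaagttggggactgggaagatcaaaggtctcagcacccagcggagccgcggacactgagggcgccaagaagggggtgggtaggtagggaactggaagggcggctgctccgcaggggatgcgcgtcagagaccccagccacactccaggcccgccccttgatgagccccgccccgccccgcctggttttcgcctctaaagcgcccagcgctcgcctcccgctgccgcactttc
The AP-1 motif TGANTCA stood in 1 of the 6 promoters, that of Ccl9, and in 7.81% of all. The core of the antioxidant response element that Nrf2 binds, searched as TGACNNNGC on both strands, stood in 0 of the 6 and in 12.4% of all.

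Cxcl1, a main neutrophil attractant, had signals of 11033.5, 9982.9 and 12551.9 in KO with GSH, 10920.9, 11549.5 and 12292.5 in KO and 5376.2, 5102.5 and 5473 in WT. Both knockout groups lay above WT without overlap and overlapped each other. The log2 change was 1.12 ± 0.07 (SE) in KO against WT (limma adjusted p = 3.4e-07) and 1.07 ± 0.07 in KO with GSH against WT (limma adjusted p = 1.7e-07). Between the knockout groups it was -0.06 ± 0.07 (limma adjusted p = 0.56), with a 95% interval of -0.2 to 0.09. The other 2 Cxcl1 probe sets, both of types that can match related transcripts, gave 1.19 and 1.24 in KO against WT and -0.1 and -0.14 between the knockout groups.

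Cxcl2, which acts on the same receptor, had signals of 12993, 14077.2 and 15502.4 in KO with GSH, 9596.6, 10994.9 and 12287.7 in KO and 4467.9, 4978.3 and 5679.5 in WT. The 3 groups did not overlap, and within each the set 3 array was the highest. The log2 change was 1.12 ± 0.07 in KO against WT (limma adjusted p = 5.4e-07). With GSH the signal was 1.3-fold that in KO (log2 change 0.38 ± 0.07, limma adjusted p = 0.0016) and 2.82-fold that in WT (1.5 ± 0.07, limma adjusted p = 2.1e-08). The difference between the knockout groups was no longer called without the set term (limma adjusted p = 0.055).

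Cxcl5 stood apart from its 2 relatives with GSH. It had signals of 1401.5, 1363.7 and 1869.6 in KO with GSH, 2939.1, 3310.2 and 4123.6 in KO and 980.1, 957 and 1459.3 in WT. KO lay above both other groups without overlap, whereas KO with GSH and WT overlapped through the higher set 3 array of WT. It rose by 1.62 ± 0.07 in KO against WT (limma adjusted p = 4.3e-08) and fell by 1.16 ± 0.07 on the log2 scale with GSH against KO (limma adjusted p = 2.5e-07). Against WT the level with GSH was 0.46 ± 0.07 higher (limma adjusted p = 3.1e-04), a call that was lost without the set term (limma adjusted p = 0.12).

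Cxcl12 was the member with the largest change. By its brighter probe set it had signals of 829.5, 739.7 and 826 in KO with GSH, 5565.5, 5870.3 and 6257.5 in KO and 2755.7, 2758.4 and 3095.8 in WT. No array of 1 group reached the range of another. It was 2.06-fold higher in KO than in WT (log2 change 1.04 ± 0.07, limma adjusted p = 5.2e-07). With GSH it was 7.39-fold lower than in KO (-2.89 ± 0.07, limma adjusted p = 2.2e-10) and 3.59-fold lower than in WT (-1.85 ± 0.07, limma adjusted p = 2.7e-09). A second probe set read 443.4 ± 75.8 in KO with GSH, 4373.2 ± 303 in KO and 2359.3 ± 159.9 in WT (SD, n = 3 each). Its log2 changes of 0.89, -3.31 and -2.42 in the 3 comparisons had the same order and sign. The remaining probe set was too dim for the filter, at 39 ± 22.2 in KO with GSH, 40.6 ± 4.07 in KO and 87.7 ± 65.8 in WT. It exceeded the control level on 1, 0 and 2 arrays of these groups, and no direction is drawn from it. In these mixed cultures fewer cells of a type and less RNA per cell cannot be told apart. Beside the fall of Cxcl12 with GSH, 11 of 12 fibroblast and mesenchymal markers fell and 0 rose, with a median log2 change of -2.47. Their summed signal was 37430.9 to 41349.6 on the KO arrays with GSH and 94272.8 to 122813.2 on the KO arrays. Of the brightest of them, the collagen genes Col1a2 and Col1a1 changed by -1.69 and -1.74 and the matrix gene Dcn by -2.93. Pdgfra, a defining fibroblast receptor, read 375.5 ± 12.1 with GSH and 6616.5 ± 1709.6 without. Of these markers 9 rose and 1 fell (Thy1) in KO against WT, with a median of 0.46, and Vim alone was not called with GSH against KO. Over all probe sets, 14.6% were called higher and 14.6% lower in KO against WT, and 18.4% and 17% with GSH against KO. The part of the fibroblast and mesenchymal markers in the Cxcl12 result was not tested.

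Ccl2 and Ccl7, the monocyte chemokines of CCR2, are neighbours on chromosome 11, and both were highest in KO. Ccl2 had signals of 12252.9, 11256.5 and 11823.2 in KO with GSH, 18840.7, 23376 and 17915.2 in KO and 11370.2, 11820.4 and 12266.9 in WT. KO lay above both other groups, which overlapped. The log2 change was 0.75 ± 0.09 in KO against WT (limma adjusted p = 9.5e-05) and -0.76 ± 0.09 in KO with GSH against KO (limma adjusted p = 5.4e-05). Between KO with GSH and WT it was -0.01 ± 0.09 (limma adjusted p = 0.97), with a 95% interval of -0.21 to 0.2, and quantile normalisation gave -0.21 with a call (limma adjusted p = 0.0022).

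Ccl7 had signals of 4288.7, 4409.6 and 3735.3 in KO with GSH, 10098.2, 11815.1 and 9183.5 in KO and 5066.1, 5207.2 and 4964.3 in WT. The 3 groups did not overlap, with KO with GSH the lowest. It was 2.03-fold higher in KO than in WT (log2 change 1.02 ± 0.07, limma adjusted p = 1.3e-06) and 2.49-fold lower with GSH than in KO (-1.32 ± 0.07, limma adjusted p = 9.1e-08). The difference of -0.3 ± 0.07 from WT with GSH (limma adjusted p = 0.006) was lost without the set term (limma adjusted p = 0.064) and within set 2 (-0.24, limma adjusted p = 0.066).

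Ccl3, Ccl4, Ccl6 and Ccl9 lie together on chromosome 11, in the order Ccl9, Ccl6, Ccl3, Ccl4 with no other coding gene between them. They were higher in both knockout groups than in WT, and none was called lower with GSH than without. Ccl3, a macrophage inflammatory protein, had signals of 12889.8, 14094.9 and 14325.4 in KO with GSH, 10391.7, 10318.4 and 11606.3 in KO and 5614, 6195.2 and 6637.8 in WT. The groups followed each other without overlap. The log2 change was 0.81 ± 0.06 in KO against WT (limma adjusted p = 2.8e-06), 0.35 ± 0.06 in KO with GSH against KO (limma adjusted p = 9.9e-04) and 1.16 ± 0.06 in KO with GSH against WT (limma adjusted p = 5.5e-08). Ccl9 had signals of 19249, 17528.1 and 17657.3 in KO with GSH, 13386.6, 14370.3 and 13026.5 in KO and 9412.8, 9768.3 and 9550.1 in WT. Its groups did not overlap either. The log2 changes of its 2 probe sets were 0.5 and 0.65 in KO against WT (limma adjusted p = 1e-04 and 6.8e-05), and 0.42 and 0.55 with GSH against KO (limma adjusted p = 2.7e-04 and 1.6e-04).

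Ccl4, the other macrophage inflammatory protein of the cluster, had the largest rise of the 10 genes in KO. Its signals were 5528.8, 5097.4 and 4085.3 in KO with GSH, 4494.3, 4892.6 and 4508.2 in KO and 1325.1, 1491 and 1378.2 in WT. Both knockout groups were far above WT and overlapped each other, with the set 3 array the lowest with GSH. It was 3.31-fold higher in KO than in WT (log2 change 1.73 ± 0.09, limma adjusted p = 9.8e-08) and 3.48-fold higher with GSH than in WT (1.8 ± 0.09, limma adjusted p = 2.4e-08). With GSH against KO the change was 0.07 ± 0.09 (limma adjusted p = 0.56), with a 95% interval of -0.12 to 0.26.

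The 2 Ccl6 probe sets differed in the call with GSH. The brighter one had signals of 23540.8, 20449.6 and 19033.1 in KO with GSH, 18663.2, 23041.2 and 17039.1 in KO and 14147, 14076.2 and 12917.2 in WT. The knockout groups overlapped, KO replicate 3 being near the top of both. Its log2 change was 0.5 ± 0.09 in KO against WT (limma adjusted p = 0.0011) and 0.11 ± 0.09 with GSH against KO (limma adjusted p = 0.37). That second change was called without KO replicate 3 (0.2, limma adjusted p = 0.042) and after quantile normalisation (0.14, limma adjusted p = 0.015). The other probe set read 17636.9 ± 1651.9 in KO with GSH, 13660.8 ± 1083.3 in KO and 10511.3 ± 175.9 in WT (SD, n = 3 each), with no overlap. Its changes were 0.38 ± 0.07 in KO against WT (limma adjusted p = 0.0025) and 0.37 ± 0.07 with GSH against KO (limma adjusted p = 0.002).

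**Figure D2:**
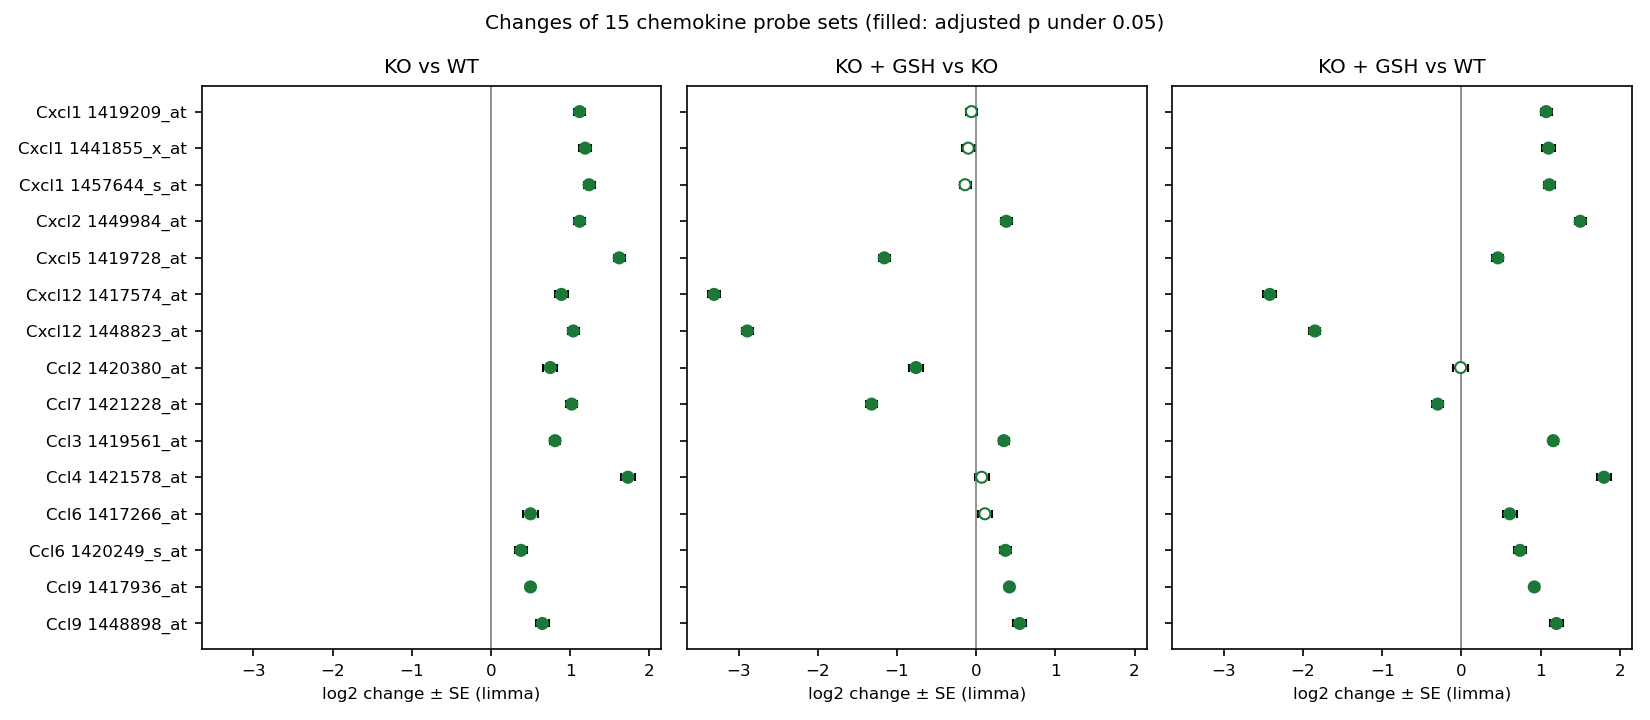
log2 change ± SE from limma for the 15 chemokine probe sets that passed the filter, with filled points for an adjusted p under 0.05. In KO against WT all 15 lie between 0.38 and 1.73, and with GSH against KO they spread from -3.31 for Cxcl12 to 0.55 for Ccl9.

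Macrophage and monocyte markers rose beside Ccl3, Ccl4, Ccl6 and Ccl9 in KO against WT, and beside Ccl3 and Ccl9 with GSH, where Ccl4 and the brighter Ccl6 probe set were not called. In KO against WT, 18 of 21 rose and 2 fell, with a median log2 change of 0.84. With GSH against KO, 13 rose and 2 fell (Marco, a scavenger receptor also known from alveolar macrophages, and the complement gene C1qc), with a median of 0.49. The shares called over all probe sets were 14.6% higher and 14.6% lower in KO against WT, and 18.4% and 17% with GSH against KO. The summed signal of the 21 markers was 184008.3 to 212341.4 in KO with GSH, 137276 to 159400.6 in KO and 85270.7 to 87390.3 in WT. Of the brightest of them, Cd14, the endotoxin co-receptor, rose by 0.94 in KO against WT and by 0.31 with GSH against KO, and Mpeg1 by 0.45 and 0.59. Lyz2, lysozyme, rose by 0.44 in KO and had -0.05 with GSH (limma adjusted p = 0.77), and Ctss had 0.2 in KO (limma adjusted p = 0.085) and rose by 0.49 with GSH. Adgre1, the F4/80 antigen, read 13736.5 ± 181.3 in KO with GSH, 10155.4 ± 898.8 in KO and 4276 ± 606.4 in WT. Csf1r, the receptor that macrophages need to survive, read 15125.3 ± 2346.3, 9151 ± 2041.2 and 5818.4 ± 268.7 in the same groups. The 2 that fell in KO were Itgax and Siglecf, which mark alveolar macrophages. Both were higher with GSH (1.89 and 1.93 against KO). Marco went the other way, with 0.67 in KO against WT (limma adjusted p = 2.2e-05) and -0.21 with GSH against KO (limma adjusted p = 0.029). All 21 lay above the control level on every array, although the labels describe a step that removes macrophages. Of the neutrophil markers 4 of 6 tested rose in KO against WT and 0 fell, with a median of 0.69, led in signal by Mmp8 (2.09) and S100a8 (2.08), which macrophages can express too, with Mmp9 (0.48) and Csf3r (0.91). The summed signal over the 10 neutrophil markers on the array was 16704.2 to 18783.3 in KO and 5171.9 to 5766.4 in WT. Mmp8 and S100a8, with means of 9111.7 and 6028.3 in KO, made up most of the KO sum. Ngp (-0.11, limma adjusted p = 0.71) and Mpo (0.14, limma adjusted p = 0.62) were tested and not called in KO against WT. S100a9, Ltf, Camp and Elane were left out by the filter, and S100a9 lay at or below the control level on every array. With GSH against KO, 3 of the 6 neutrophil markers rose (Csf3r, Mmp9 and Ngp) and 0 fell, with a median of 0.39. The part of these cell types in the chemokine changes was not tested.

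Epithelial markers moved the other way to Cxcl12, Ccl2, Ccl7 and Cxcl5. All 6 fell in KO against WT (median -1.78) and all 6 rose with GSH against KO (median 2.22). Krt8 and Krt18, keratins of simple epithelium, changed by -1.75 and -1.82 in KO against WT and by 2.15 and 2.29 with GSH against KO. The summed signal of all 6 was 65757.2 to 69245.5 in KO with GSH, 13468.1 to 14802.4 in KO and 47024 to 49390.8 in WT. Of 7 type II markers tested, 1 rose (Napsa) and 1 fell (Sftpd) in KO against WT, and 4 rose with GSH against KO (Sftpd, Abca3, Napsa and Lpcat1). Of 6 endothelial markers, 0 rose and 2 fell in KO against WT (Kdr and Emcn), and Emcn rose and Cldn5 fell with GSH against KO. Over all probe sets, 14.6% were called higher and 14.6% lower in KO against WT, and 18.4% and 17% with GSH against KO. The type II counts in KO against WT and the endothelial counts with GSH against KO lay near these shares. All 5 mesothelial markers fell in KO against WT (median -1.87), and 4 fell and Msln rose with GSH against KO (median -2.1). Msln was the brightest of them and rose by 2.91. The summed mesothelial signal therefore went against the median, at 7493.1 to 8299 in KO with GSH and 3946.2 to 4226.2 in KO. Of the lymphocyte markers only Cd8a and Ms4a1 passed the filter, and neither was called in any comparison. Cd3e read 43.8 ± 6.33 in KO with GSH, 47 ± 20.9 in KO and 35.6 ± 9.32 in WT, about the control level. The part of these markers in the chemokine changes was not tested either.

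**Figure D3:**
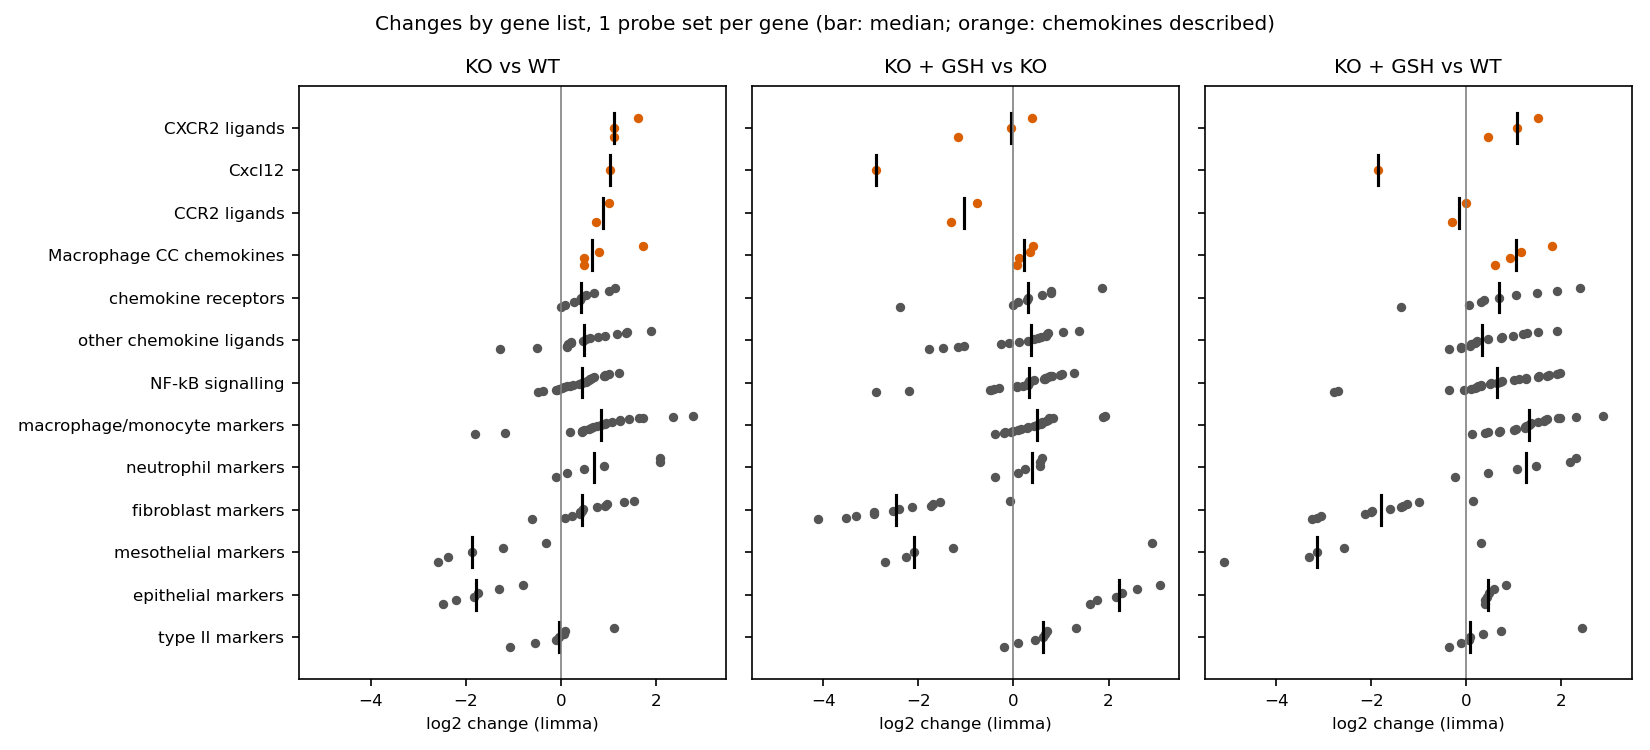
log2 changes from limma by gene list, with 1 probe set per gene and a bar at the median, chemokines in orange at the top. Fibroblast markers lie below 0 with GSH against KO (median -2.47), on the side of Cxcl12 and the CCR2 ligands, and macrophage markers have a median of 0.49, on the side of Ccl3 and Ccl9. Ccl4 and the brighter Ccl6 probe set, the one drawn, were not called there.

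Receptors of these chemokines were partly measurable. Of 23 chemokine receptor genes listed, 22 had a probe set and 9 passed the filter. Between KO and WT, 5 were higher (Ccr1, Cxcr4, Ackr3, Ccrl2 and Cx3cr1) and 0 lower, with a median of 0.43. With GSH against KO the same genes but Ackr3 were higher and Ackr3 was lower, with a median of 0.3. Among all probe sets, 14.6% were called higher and 14.6% lower in KO against WT, and 18.4% and 17% with GSH against KO. Ccr1, the receptor for Ccl3, Ccl6 and Ccl9, had signals of 3599.4, 3874.9 and 3655.8 in KO with GSH, 2135.7, 2049.6 and 2248 in KO and 1314.2, 1218 and 1464.3 in WT. The 3 groups did not overlap. It rose in KO against WT (0.69 ± 0.07, limma adjusted p = 3e-05) and again with GSH (0.79 ± 0.07, limma adjusted p = 5.6e-06). A dimmer Ccr1 probe set, left out by the filter, averaged 107.1 ± 37.4 in KO with GSH, 64.5 ± 9.87 in KO and 82.9 ± 10.5 in WT and was not called without the filter (limma adjusted p = 0.52 in KO against WT). Cxcr4, the signalling receptor for Cxcl12, read 910.7 ± 98.7 in KO with GSH, 596.2 ± 58.5 in KO and 443.4 ± 65.1 in WT. It rose with GSH (0.61 ± 0.12, limma adjusted p = 0.0024) where its ligand fell. Ackr3, the scavenger of Cxcl12, had signals of 216.9, 231 and 257.1 in KO with GSH, 1555, 958.9 and 1253.1 in KO and 568.1, 648.9 and 619.9 in WT. It had the group order of Cxcl12, with 1.01 ± 0.16 in KO against WT (limma adjusted p = 5.5e-04) and -2.39 ± 0.16 with GSH against KO (limma adjusted p = 3.5e-07). Ccrl2, an atypical receptor that binds chemerin, rose by 1.14 in KO against WT and by 0.78 with GSH against KO. Cxcr2, the receptor of the neutrophil chemokines, read 39.3 ± 14.2 in KO with GSH, 23.2 ± 11.2 in KO and 29.8 ± 11 in WT, above the control level on 1 of the 9 arrays. The 4 probe sets of Ccr2 also failed the filter, with group means of 5.33 to 91.6 and differing directions.

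Other chemokine ligands also moved in both directions. Of 25 listed, 24 had a probe set and 16 passed the filter. Against WT, 9 were higher in KO and 1 lower (Cxcl11), with a median of 0.5. Against KO, 8 were higher with GSH and 4 lower (Cxcl10, Cxcl14, Ccl8 and Ccl12), with a median of 0.38. The shares over all probe sets were 14.6% higher and 14.6% lower in KO against WT, and 18.4% and 17% with GSH against KO. The 4 of these ligands with the highest mean signal were Cxcl3, Pf4, Cxcl16 and Cxcl14. Cxcl3, a further CXCR2 ligand, read 13340.3 ± 2478.5 in KO with GSH, 10698.6 ± 1320.1 in KO and 9728.7 ± 1170.4 in WT. Its change of 0.14 ± 0.07 in KO against WT did not pass (limma adjusted p = 0.19), and with GSH against KO it rose by 0.31 (limma adjusted p = 0.0057). Pf4, known from platelets and macrophages, rose by 0.54 in KO and by a further 0.44 with GSH. Cxcl16, a membrane-bound chemokine that is also a scavenger receptor, rose by 0.22 in KO against WT (limma adjusted p = 0.016) and by 1.05 with GSH. Cxcl14, made by epithelium and stroma, had the group order of Cxcl5, at 4002.3 ± 203 in KO with GSH, 8949.3 ± 898.7 in KO and 2388.7 ± 212.8 in WT. It changed by 1.9 in KO against WT (limma adjusted p = 5.7e-09) and by -1.16 with GSH against KO (limma adjusted p = 8.9e-08).

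Genes listed for NF-kB signalling, including some such as Nfkbia that NF-kB itself induces, were more often higher than lower in both KO comparisons. The largest changes with GSH against KO were falls. Of 27 listed, 25 were tested. Of these, 14 rose and 2 fell (Ikbkg and Il1r1) in KO against WT, with a median of 0.45. With GSH against KO, 13 rose and 6 fell (Il17rc, Il1r1, Nfkbiz, Zfp36, Tnfrsf1a and Bcl3), with a median of 0.32. The falls of the receptor genes Il17rc (-2.9) and Il1r1 (-2.21) were the largest changes. Among all probe sets tested, 14.6% were called higher and 14.6% lower in KO against WT, and 18.4% and 17% with GSH against KO. Il1b, the cytokine interleukin-1 beta, read 16385.6 ± 1505.2 in KO with GSH, 10321.2 ± 702.5 in KO and 5076.2 ± 124.1 in WT. It rose by 1.02 in KO (limma adjusted p = 3.7e-07) and by 0.67 with GSH against KO (limma adjusted p = 6.3e-06). Il1a, its relative, rose by 0.54 and 0.98 in these comparisons. Nfkbia, the inhibitor that NF-kB induces against itself, rose by 0.65 in KO, and its change with GSH was 0.07 (limma adjusted p = 0.46). Nfkbiz, a nuclear cofactor of NF-kB, rose by 0.61 in KO and fell by 0.5 on the log2 scale with GSH.

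The chemokine changes called within set 2 had the same direction in set 3, and some differed in size. Within set 2, 15 of 15 chemokine probe sets were called in KO against WT, 10 in KO with GSH against KO and 13 in KO with GSH against WT, where 4786, 6243 and 8266 of all 22519 were called. Between the single arrays of set 3, 15, 13 and 14 of 15 had the direction seen in set 2. Of all probe sets called within set 2, 96%, 96.2% and 96.4% kept their direction in set 3 in these comparisons. The exceptions were 1 Cxcl1 probe set and Ccl4 with GSH against KO, and Ccl2 with GSH against WT, none of which was called in set 2 or over all arrays. Cxcl12 by its brighter probe set changed by -2.87 in set 2 and -2.92 in set 3 with GSH against KO. Ccl2 in KO against WT had 0.86 in set 2 and 0.55 in set 3, and the dimmer Ccl6 probe set had 0.44 and 0.25.

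**Figure D4:**
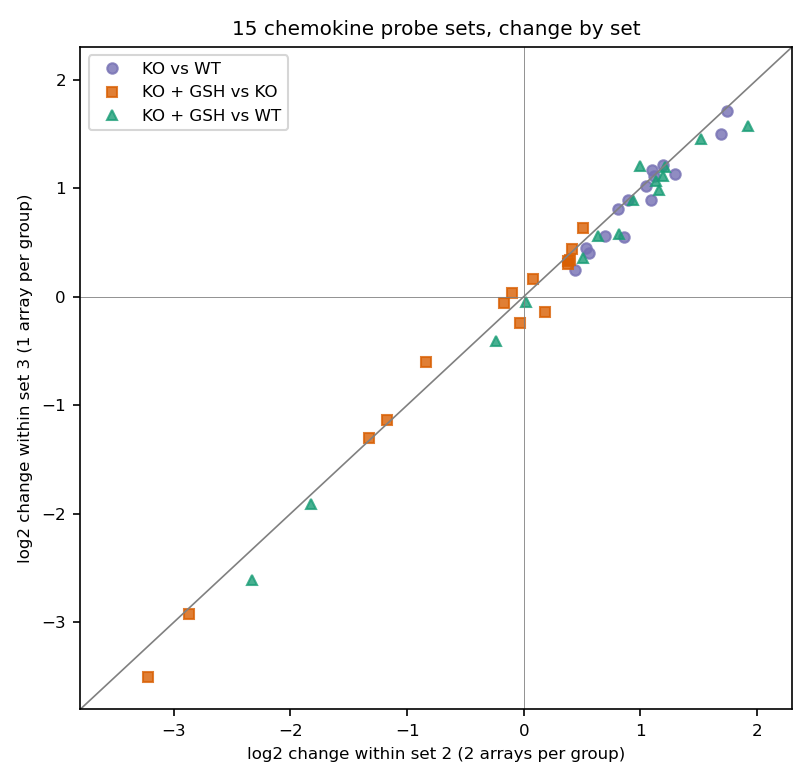
log2 change within set 2 (2 arrays per group, horizontal) against that within set 3 (1 array per group, vertical) for the 15 chemokine probe sets in 3 comparisons, with the line of equal change. The points lie along the line from -3.22 and -3.5 for Cxcl12 with GSH to 1.74 and 1.71 for Ccl4 in KO.

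The genes whose log2 signal followed each chemokine most closely over the 9 arrays were taken from the 20099 kept probe sets with 1 symbol. The arrays fall into 3 groups and share sets and scaling, so these Pearson correlations mainly repeat the order of the group means and are given as a description. Cxcl12 was followed by Vcan (0.999), the matrix proteoglycan versican, and by Igf1 and Nrep (0.998 each). Ccl3 was followed by Fcgr2b (0.996), an Fc receptor of myeloid cells, Pid1 and Slfn4. Cxcl2 was followed by Rap1b, Ms4a6d and Msr1, a macrophage scavenger receptor (0.996 for Msr1), and Ccl4 by Cd47, the complement receptor gene C3ar1 (0.993) and Rbpj. Ccl6 was followed by the protease gene Ctsl (0.996), Akna and Itm2b, and Ccl9 by Sgk3 (0.997), Tmbim6 and Clmp. Cxcl5 was followed by Cxcl14 (0.993), Ndufaf5 and Plcb4. Ccl2 and Ccl7 shared Sod3, the extracellular superoxide dismutase, among their 3 nearest genes (0.97 and 0.981). Ccl2 had lower likeness to its nearest gene, Pttg1 (0.971), than the other members to theirs. Cxcl1 was followed by Trim30d (0.997), Sp100 and Mki67.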

How the data were processed

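Transcripts were measured on 9 arrays in 3 groups of 3. The authors deposited a linear intensity per probe set and array. These deposited values had a 2% trimmed mean of 500 on every array, which shows a common scaling. The sources used here do not name the software. Of 45101 probe sets, 64 controls were left out. Values below 0.1 (2 of them) were set to 0.1, log2 was taken with no further normalisation, and the 22519 probe sets with a mean log2 intensity at or above the median of all (a geometric mean of 116) were kept. The platform annotation gave symbols (34945 probe sets with 1 symbol, 932 with several, 9160 with none), and all 10 chemokine symbols matched the RefSeq gene table.

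One model over the 9 arrays held group and set, fitted by limma 3.58.1 (R 4.3.3) with its trend option, which left 5 residual degrees of freedom beside 6.08 from the prior. p-values were adjusted over all kept probe sets. The control level on an array is the 95th percentile of 27 bacterial control probe sets, used as a background level. Where a group lay at or below it on every array, a fold is given as at least the brighter group's mean over that level (geometric means). The genes named are every chemokine probe set, the receptors of these chemokines, genes among the 4 with the highest mean signal in each other list, and the 3 genes most like each chemokine, and a few marker genes and single members of lists were added after their values were seen. The members and lists were chosen with earlier results of these data known. The NF-kB motif was first searched with 1 more letter, which matched the same 2 promoters.

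Arrays of KO with GSH and KO share replicate numbers 2, 3 and 4. In deviations from their group means, same-numbered arrays correlated at 0.32, 0.29 and 0.67. Arrays of set 2 with different numbers correlated at 0.24 and 0.39. The KO and WT arrays of set 3, numbered 4 and 5, correlated at 0.7. Pairing by number therefore cannot be told apart from a shared set, and the main model held no pairing. WT and KO arrays numbered 4, of different sets, correlated at -0.49, and those numbered 3, both of set 2, at 0.42.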

Additional observations from a re-analysis of the deposited data

Results flagged for a closer look

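The signal filter left out 43 probe sets of 28 chemokine and receptor genes. Of these, 4 lay above the control level on all 3 arrays of 1 group and on none of another, which is why they are given here. These 4 were picked by the same values, so their p-values below are no separate support. The share of all probe sets that meet this rule is not given here. Ccl11, the eosinophil chemokine eotaxin, had signals of 7.9, 8.7 and 8 in KO with GSH, 213.5, 179.4 and 232.1 in KO (mean 208.3) and 6.8, 5.9 and 34.7 in WT. It was at least 3.43-fold lower with GSH than in KO and at least 4.14-fold higher in KO than in WT (limma adjusted p = 2.5e-04 and 8.1e-04 without the filter). Ccl22, a chemokine of dendritic cells and macrophages, averaged 380.1 ± 63.3 in KO with GSH, 259.7 ± 13.7 in KO and 8.63 ± 4.64 in WT. It was at least 5.18-fold higher in KO than in WT and at least 7.52-fold higher with GSH than in WT (limma adjusted p = 5.7e-06 and 9.6e-07 without the filter). Ccr7, the lymph node homing receptor, averaged 115.3 ± 14.9 in KO with GSH, 10.4 ± 6.58 in KO and 16.8 ± 17.3 in WT, and was at least 2.12-fold higher with GSH than without (limma adjusted p = 0.0069 without the filter). Ccr2 has 4 probe sets that differ. The one above the control level on all KO arrays and no WT array averaged 65.8 ± 20.9 in KO and 39.9 ± 15.4 in WT, and did not pass without the filter (limma adjusted p = 0.41). A second averaged 78.3 ± 17.3 in KO with GSH, above the control level on 2 arrays, and 16.7 ± 14 in WT, at least 1.54-fold higher (limma adjusted p = 0.013 without the filter). A further one averaged 49 ± 13.6 in KO with GSH, 29.8 ± 5.47 in KO and 5.33 ± 4.07 in WT, with no overlap. It passed without the filter in KO against WT and in KO with GSH against WT (limma adjusted p = 0.02 and 0.003), but lay at or below the control level on all 9 arrays, so no fold is given. The last was not called in any comparison without the filter.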

How the results depend on the processing

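The 15 tested chemokine probe sets were refitted in 3 comparisons under 21 alternatives, 315 values per comparison, and no called change turned its sign. KO against WT kept its call in 308 values and lost it in 7. KO with GSH against KO was as reported in 307, lost the call in 6 and gained it in 2. KO with GSH against WT was as reported in 306, lost the call in 8 and gained it in 1. Leaving out 1 array at a time gave 15 called chemokine probe sets in KO against WT, 10 to 11 in KO with GSH against KO and 14 in KO with GSH against WT. The pairwise part of the submitters' own rule (a 1.5-fold change in at least 6 of 9 array pairs) called 5 chemokine probe sets in KO with GSH against KO in place of 10, all of them lower. Over all probe sets the calls in KO against WT were 6560, with 4500 to 6825 when 1 array was left out, 2774 without the set term and 2147 by the fold rule. In KO with GSH against KO they were 7964, with 6659 to 7847, 4574 and 3260 under these alternatives. In KO with GSH against WT they were 10074, with 8184 to 10452, 6181 and 4352. With the replicate block in place of the set term the calls in KO against WT were 3253, and 2098 with only these groups in the fit. In KO with GSH against WT they were 6586 and 6012. The replicate block ended the call of the brighter Ccl6 probe set in KO against WT (limma adjusted p = 0.06) and of Ccl7 in KO with GSH against WT (0.061). In these comparisons the arrays numbered 4 come from different sets. With only KO and WT in the replicate block fit, the other Ccl6 probe set (0.14) and the brighter Ccl9 probe set (0.053) also lost their calls. The replicate block changed no chemokine call between KO with GSH and KO. Median centring moved the median log2 change of all probe sets to -0.128 in KO with GSH against WT, in place of 0.021. The signals of Cxcr2 and most Ccr2 values lay near or below the control level, which limits what they can show.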

Other observations

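The CC chemokine genes of chromosome 11 fell into neighbouring blocks that differed with GSH, a pattern noticed after the values were seen and not tested. In the RefSeq order of coding genes, Ccl2, Ccl7, Ccl11, Ccl12 and Ccl8 follow each other, and the 4 of these 5 that were tested were higher in KO than in WT and lower with GSH than without. Ccl12, a mouse ligand of CCR2, read 1556.3 ± 197.3 in KO with GSH, 5292.4 ± 665.4 in KO and 2006.3 ± 278.7 in WT, and changed by 1.4 in KO against WT and -1.77 with GSH against KO (limma adjusted p = 5.6e-08 and 3.4e-09). Ccl8 read 384 ± 37, 791.8 ± 98.4 and 411.9 ± 11.6 in the same groups. In the block Ccl5, Ccl9, Ccl6, Ccl3 and Ccl4, 0 of 5 were lower with GSH than without by their brightest probe set and 3 were higher. Of all probe sets tested, 14.6% were called higher in KO against WT. With GSH against KO, 18.4% were called higher and 17% lower, and the count of 0 lower among 5 lay near that last share. The results for Ccl2, Ccl7, Ccl9, Ccl6, Ccl3 and Ccl4 were already given above, so their part of the pattern restates them. Ccl5, a T cell and monocyte chemokine, rose by 1.19 in KO against WT and by 0.71 with GSH against KO (limma adjusted p = 9.8e-04 and 0.016).

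The interferon-induced ligands of CXCR3 moved apart, also noticed after the values were seen. Cxcl10 read 1250.9 ± 119.7 in KO with GSH, 3493.1 ± 312.7 in KO and 1341.4 ± 124.3 in WT (SD, n = 3 each). Cxcl11 read 798 ± 183.5, 302 ± 32.9 and 743.6 ± 183.6 in the same groups. Their log2 changes were 1.38 and -1.28 in KO against WT (limma adjusted p = 5.3e-07 and 7e-06), and -1.48 and 1.38 with GSH against KO (limma adjusted p = 1.6e-07 and 2e-06). Cxcl9, the third ligand of this receptor, was left out by the signal filter.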
